A study of Mus musculus with 6 samples.

Results

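The 10 mouse genes described here write, read or erase 5-methylcytosine, the methyl mark on CpG dinucleotides of DNA. They were taken by name as the DNA methyltransferases Dnmt1, Dnmt3a, Dnmt3b, Dnmt3c and Dnmt3l, the ubiquitin ligases Uhrf1 and Uhrf2, and the dioxygenases Tet1, Tet2 and Tet3. They are 10 of the 54532 genes in the deposited tables, and all 10 were matched by Ensembl identifier. Their RNA was measured by RNA sequencing in pachytene spermatocytes purified from mouse testis by STA-PUT, a sedimentation method that sorts cells by size. Mice were about 80 days old, and the design text asks about meiotic sex chromosome inactivation once the MAPS protein is gone.

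There were 3 genotypes with 2 libraries each. EE_KO cells are labelled MAPS overexpression in a KO background and are written MAPS EE;MAPS-/- in the design text, KO cells are MAPS-/-, and WT cells carry neither change. Every group was purified the same way, and each group drew on 3 mice of 1 genotype over 2 independent experiments. The labels do not say whether mice were pooled in a library, which part of the gene the KO removes, what drives the overexpression or what EE stands for. Where replicates are not stated to come from separate animals, a p-value measures the spread between these libraries alone, which may be technical.

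DNA methylation is copied at replication by DNMT1, which UHRF1 brings to hemimethylated CpGs; UHRF2 is its close relative. New methylation is placed by DNMT3A, DNMT3B and, in the male germ line of mice and their rodent relatives, DNMT3C, with the catalytically inactive DNMT3L as their partner. TET1, TET2 and TET3 oxidise 5-methylcytosine, which opens the way to its removal. In the male germ line most new methylation is laid down before birth in prospermatogonia, well ahead of pachytene, when homologous chromosomes are fully paired.

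Sequence limits what can be said of 2 of the genes. Dnmt3c lies just downstream of Dnmt3b on mouse chromosome 2, with the coding parts of the annotated transcripts 89.4% identical over 2196 aligned bases. Of the 2174 overlapping 50-base stretches in the annotated Dnmt3c transcript, 514 (23.6%) also occur in annotated transcripts of Dnmt3b. They are 9.81% of the stretches in all Dnmt3b transcripts, untranslated parts included, and so not a share of its coding sequence. The longest run shared by the 2 coding sequences holds 287 bases and is shown because reads inside it cannot be assigned to 1 of the pair. In Dnmt3c it spans exons 16 to 19 (GRCm38, chr2:153723482-153729777, plus strand) and in Dnmt3b exons 21 to 24 (chr2:153678471-153686269, plus strand), and it is identical in both.
Dnmt3c and Dnmt3b shared coding run: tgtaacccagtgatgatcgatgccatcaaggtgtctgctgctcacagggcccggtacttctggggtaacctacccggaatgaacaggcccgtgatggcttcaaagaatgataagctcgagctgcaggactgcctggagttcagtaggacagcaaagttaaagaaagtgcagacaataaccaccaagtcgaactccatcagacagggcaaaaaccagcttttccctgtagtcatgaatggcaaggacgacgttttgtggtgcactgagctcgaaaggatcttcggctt
The other related pairs had diverged further. Coding identity was 69.2% between Dnmt3b and Dnmt3a, 68.8% between Dnmt3c and Dnmt3a, 61.9% between Dnmt3l and Dnmt3a and 64.9% between Uhrf1 and Uhrf2, each with 0 shared 50-base stretches. Exons of Dnmt3a, Dnmt3l and Tet2 overlap an opposite-strand gene over 133, 67 and 43 bases, which are 0.799%, 2.24% and 0.255% of their exon length. The sources used here give no strand for the reads, so reads in those stretches cannot be told apart from the partner gene's.

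Promoter windows from 250 bases before to 50 bases after a start site were read from RefSeq (GRCm38.p6), which gave 16 windows for 9 of the genes and none for Dnmt3c. They were searched on both strands for TTTCGCGC and TTTGGCGC (E2F-type, the motif of a factor family tied to S phase), for GGGCGG (GC box) and for CCAAT. The E2F-type letters contain CpG and may overlap one another. An E2F-type match occurred in 1 window each of Uhrf1 and Dnmt1, and in 0.813% of all 32851 windows in the RefSeq table; GGGCGG occurred in 35.7% and CCAAT in 37.4%. The windows nearest the annotated starts of the 9 genes held 0 E2F-type matches, while GGGCGG occurred in 8 of these windows and CCAAT in 3. The 2 windows with an E2F-type match are shown, with those matches in capitals, because these genes had the highest levels of the set. Uhrf1 fell in KO cells, and the fall of Dnmt1 depended on scaling.
Uhrf1 (chr17:56304063-56304362, plus strand): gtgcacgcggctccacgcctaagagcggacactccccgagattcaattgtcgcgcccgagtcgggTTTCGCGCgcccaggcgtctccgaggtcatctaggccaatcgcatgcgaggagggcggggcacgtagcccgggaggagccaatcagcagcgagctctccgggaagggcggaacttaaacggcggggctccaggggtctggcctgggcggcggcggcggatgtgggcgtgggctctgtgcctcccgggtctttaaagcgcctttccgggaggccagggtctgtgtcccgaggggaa
Dnmt1 (chr9:20952574-20952873, minus strand): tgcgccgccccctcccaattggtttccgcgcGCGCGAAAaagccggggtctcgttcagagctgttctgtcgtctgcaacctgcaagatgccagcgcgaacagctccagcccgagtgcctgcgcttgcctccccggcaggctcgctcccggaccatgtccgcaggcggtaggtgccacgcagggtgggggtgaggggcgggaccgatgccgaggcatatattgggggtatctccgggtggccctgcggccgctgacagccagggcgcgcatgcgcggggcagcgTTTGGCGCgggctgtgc
The Uhrf1 window belongs to a start site 992 bases from the annotated gene start and held 33 CpGs, 1 E2F-type match, 3 GC boxes and 2 CCAAT letters. The Dnmt1 window also held 33 CpGs, with 2 E2F-type matches, 2 GC boxes and 3 CCAAT letters, and belongs to a start site 7265 bases inside the annotated gene. The window at the outermost Dnmt1 start held 2 CpGs and that nearest the annotated Uhrf1 start 12. Over all windows the median was 7 CpGs, with a range of 1 to 31 between the 10th and 90th percentiles. Among the other genes the Tet2 window held 57 CpGs, more than 99.87% of all windows, and the Dnmt3l windows held 6, 4 and 3. A letter match describes the window and says nothing of binding.

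Values are FPKM, fragments per kilobase of gene scaled to a library size, so levels can be compared between genes. Reads on genes, recovered from the FPKM, came to 14178387 to 16565238 per library. In these values 1 read over a 2 kb gene stands for 0.0278 to 0.0357 FPKM. The library size implied by the FPKM was 1.79663e+07 and 1.73736e+07 in KO, above the 15886958 and 14178387 reads on genes. In WT it was 1.39996e+07 and 1.5136e+07, below the 15947288 and 16234001 reads on genes. The implied size was also below the reads on genes in both EE_KO libraries. Relative to reads on genes, KO values were thus scaled lower than EE_KO and WT values. Changes are differences of log2(FPKM + 1), which understate the change of low genes, and a gene is called changed when the limma p, adjusted by Benjamini-Hochberg over all 15368 genes tested, is below 0.05. The test took genes with a mean of at least 1 FPKM over the 6 libraries, which 8 of the 10 genes reached. Dnmt3l (1.46 FPKM) and Tet3 (1.496 FPKM) lay just inside that limit, and Tet2 (0.930 FPKM) and Tet1 (0.120 FPKM) outside it. Dnmt3a, Dnmt3c and Tet3 were under 1 FPKM in every EE_KO and WT library and passed only through their KO level. The KO libraries went against their label in the markers of mid to late pachytene. The summed level of these markers was 314 to 379 FPKM in KO cells against 8338 to 9160 FPKM in WT cells. KO libraries were also high in Sertoli and Leydig cell markers. EE_KO and WT libraries held spermatid markers as well, with sums of 2484 to 3581 FPKM in EE_KO and 1999.9 to 3844 FPKM in WT. The full lists are given after the results on the 10 genes. The MAPS gene, listed as 1700102P08Rik, had 108.6 and 82.2 FPKM in EE_KO cells, 7.97 and 10.1 FPKM in KO cells, and 157.0 and 150.2 FPKM in WT cells.

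KO cells differed from WT cells in all 8 tested genes. Dnmt3a, Dnmt3c and Tet3 were tested only because of their KO level, so the filter favoured their calls in both comparisons with KO. Uhrf1, Dnmt1 and Dnmt3l fell, and Uhrf2, Dnmt3a, Dnmt3b, Dnmt3c and Tet3 rose. The background is broad: 86.2% of all genes tested were called in this comparison, 38.0% higher and 48.1% lower in KO, so a count of 8 of 8 stands close to it. In bulk RNA, fewer cells of a type and less RNA per cell cannot be told apart. In all 10 genes the KO libraries lay wholly outside the WT range, as they did in 93.4% of all genes tested. The median log2 change of the 8 genes was 1.29, beside −0.29 over all genes tested. The filter favoured rises among the 8 through Dnmt3a, Dnmt3c and Tet3, so their median cannot show that the set rose. That all-gene median moved to 0.09 when the values were rescaled to TPM and to 0.03 with quantile normalization, so small log2 changes depend on the scaling, Dnmt1 among them.

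EE_KO cells lay on the WT side for all of these genes. Against KO, the same limma fit called all 8, with Dnmt1, Uhrf1 and Dnmt3l higher and the other 5 lower in EE_KO; over all genes tested 85.6% were called, 47.8% higher and 37.8% lower. The libraries of the 2 groups did not overlap for any of the 10 genes, as for 93.6% of all genes tested. Here 3 called higher and 5 called lower became 1 higher and 5 lower with TPM, with quantile normalization and with a voom fit on recovered reads. Against WT, limma called 0 of the 8 genes, while 1 (Dnmt3l) had an unadjusted p below 0.05, and voom also called 0; over all genes tested 0.0455% were called and 7.48% had an unadjusted p below 0.05. Libraries of EE_KO and WT did not overlap for 5 of the 10 genes (Uhrf2, Dnmt3b, Dnmt3l, Tet1 and Tet2) and for 3 of the 8 tested, against 36.5% of all genes tested. The 3 comparisons share libraries: the KO libraries serve both comparisons with KO, so opposite signs in them are not separate observations.

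**Figure D1:**
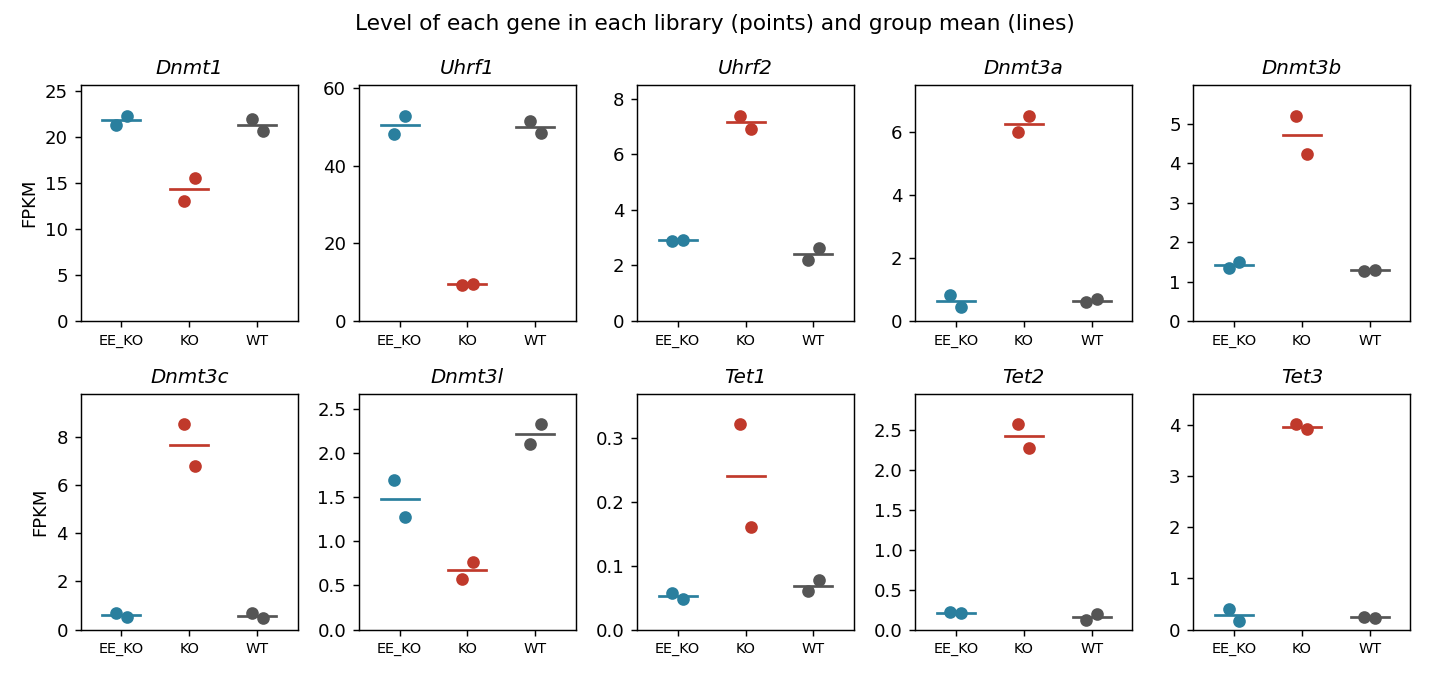
FPKM of each of the 10 genes on linear axes from 0, with 1 point per library and the groups EE_KO, KO and WT from left to right; lines mark group means (n = 2). In every panel the 2 KO points stand apart from the other 4, below them for Dnmt1, Uhrf1 and Dnmt3l and above them for the other 7 genes.

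Among the maintenance genes, Uhrf1 showed the largest fall of the set. Uhrf1 (ENSMUSG00000001228, GRCm38 chr17:56303321-56323486, plus strand) had 48.3 and 52.9 FPKM in EE_KO cells, 9.32 and 9.57 FPKM in KO cells, and 51.5 and 48.5 FPKM in WT cells. The KO libraries nearly coincided and lay far under the rest, while the EE_KO pair bracketed the WT pair. The KO mean of 9.44 ± 0.177 FPKM was 18.9% of the WT mean of 49.97 ± 2.12 FPKM (SD, n = 2 each), a log2 change of −2.29 (SE 0.11, limma adjusted p = 5.04e-07). EE_KO averaged 50.6 ± 3.25 FPKM, a log2 change of 2.30 against KO (SE 0.11, limma adjusted p = 5.17e-07). Against WT the EE_KO difference was 0.02, with a 95% interval of −0.23 to 0.26. The fall in KO was called in 16 of 16 alternative settings.

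Dnmt1, the maintenance methyltransferase itself, moved less. Dnmt1 (ENSMUSG00000004099, chr9:20907209-20959888, minus strand) had 21.4 and 22.3 FPKM in EE_KO cells, 13.1 and 15.6 FPKM in KO cells, and 21.9 and 20.7 FPKM in WT cells. Both KO libraries were under every other library. The KO mean was 67.2% of the WT mean, with a log2 change of −0.55 (SE 0.12, limma adjusted p = 0.00302). In EE_KO the log2 change against KO was 0.58 (SE 0.12, limma adjusted p = 0.00220), and against WT it was 0.03, with a 95% interval of −0.25 to 0.32. The Dnmt1 calls depended on scaling: KO against WT came to −0.14 with TPM (limma adjusted p = 0.381), −0.15 with quantile normalization (0.308) and −0.19 with voom (0.193), and EE_KO against KO to 0.21, 0.21 and 0.25 (adjusted p = 0.200, 0.160 and 0.0900). Within the set, Uhrf1 and Dnmt1 can be compared without any scaling between libraries. The ratio of Uhrf1 to Dnmt1 FPKM was 2.26 and 2.37 in EE_KO cells, 0.713 and 0.615 in KO cells, and 2.35 and 2.34 in WT cells. Uhrf1 was thus the higher of the pair in EE_KO and WT, and Dnmt1 in KO; with 2 libraries against 2 the smallest p an exact permutation test can give is 0.333.

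Uhrf2, which binds hemimethylated and hydroxymethylated DNA, moved opposite to Uhrf1. Uhrf2 (ENSMUSG00000024817, chr19:30030513-30093722, plus strand) had 2.89 and 2.92 FPKM in EE_KO cells, 7.39 and 6.91 FPKM in KO cells, and 2.21 and 2.63 FPKM in WT cells. Both KO libraries were above the rest, and the EE_KO pair lay just above the WT pair. The KO mean was 2.95 times the WT mean, a log2 change of 1.25 (SE 0.14, limma adjusted p = 6.02e-05). The EE_KO change was −1.06 against KO (SE 0.14, limma adjusted p = 0.000171) and 0.19 against WT, with a 95% interval of −0.14 to 0.53. The ratio of Uhrf1 to Uhrf2 FPKM was 16.8 and 18.1 in EE_KO cells, 1.26 and 1.39 in KO cells, and 23.3 and 18.4 in WT cells, so Uhrf1 was the higher in every library, by least in KO.

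The 3 catalytically active de novo enzymes all rose in KO. Dnmt3a (ENSMUSG00000020661, chr12:3806007-3914443, plus strand) had 0.808 and 0.450 FPKM in EE_KO cells, 6.0001 and 6.52 FPKM in KO cells, and 0.609 and 0.683 FPKM in WT cells. The KO libraries stood apart, and the EE_KO libraries bracketed the WT ones. The KO mean of 6.26 ± 0.365 FPKM was 9.69 times the WT mean of 0.646 ± 0.0519 FPKM (SD, n = 2 each), with a log2 change of 2.14 (SE 0.17, limma adjusted p = 6.40e-06). These values rest on 197 and 112 reads in EE_KO, 1794 and 1884 in KO, and 142 and 172 in WT. EE_KO against KO gave −2.16 (SE 0.17, limma adjusted p = 6.51e-06), and EE_KO against WT −0.02, with a 95% interval of −0.41 to 0.36.

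Dnmt3b, best known for methylating pericentromeric repeats, had the highest EE_KO and WT level of the 3 enzymes. Dnmt3b (ENSMUSG00000027478, chr2:153649450-153687730, plus strand) had 1.35 and 1.49 FPKM in EE_KO cells, 5.21 and 4.23 FPKM in KO cells, and 1.27 and 1.29 FPKM in WT cells. The KO pair was highest, and the EE_KO pair lay above the WT pair by less than the gap between the KO libraries. The KO mean was 3.68 times the WT mean, a log2 change of 1.32 (SE 0.15, limma adjusted p = 7.19e-05). EE_KO against KO was −1.24 (SE 0.15, limma adjusted p = 0.000111), and against WT 0.08, with a 95% interval of −0.28 to 0.44.

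Dnmt3c, which in mice methylates young retrotransposon promoters in fetal male germ cells, had the largest rise of the tested genes on the log2(FPKM + 1) scale; with a pseudocount of 0.1 and with voom its rise (3.53 and 4.12) was below that of Tet3 (3.59 and 4.44). Dnmt3c (ENSMUSG00000082079, chr2:153696652-153729907, plus strand) had 0.676 and 0.541 FPKM in EE_KO cells, 8.51 and 6.81 FPKM in KO cells, and 0.675 and 0.476 FPKM in WT cells. EE_KO and WT overlapped, with both KO libraries far above. The KO mean of 7.66 ± 1.20 FPKM was 13.3 times the WT mean of 0.575 ± 0.141 FPKM (SD, n = 2 each), a log2 change of 2.45 (SE 0.17, limma adjusted p = 3.41e-06). EE_KO against KO was −2.42 (SE 0.17, limma adjusted p = 4.06e-06), and against WT 0.03, with a 95% interval of −0.36 to 0.42. The Dnmt3c values rest on 22 and 18 reads in EE_KO, 340 and 263 in KO, and 21 and 16 in WT. The annotated transcript holds coding sequence alone, 2223 bases, so its FPKM leaves out any untranslated part. Because of the stretches shared with Dnmt3b shown above, how reads were split between the pair is uncertain. The ratio of Dnmt3c to Dnmt3b FPKM was 0.5003 and 0.363 in EE_KO cells, 1.63 and 1.61 in KO cells, and 0.530 and 0.368 in WT cells, so Dnmt3b was the higher of the pair in EE_KO and WT and Dnmt3c in KO.

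Dnmt3l, the inactive partner of the de novo enzymes, went the other way. Dnmt3l (ENSMUSG00000000730, chr10:78041947-78063622, plus strand) had 1.69 and 1.27 FPKM in EE_KO cells, 0.577 and 0.771 FPKM in KO cells, and 2.10 and 2.32 FPKM in WT cells. The 3 groups did not overlap, with EE_KO between KO and WT. The KO mean was 30.5% of the WT mean, a log2 change of −0.94 (SE 0.16, limma adjusted p = 0.000687). EE_KO against KO was 0.57 (SE 0.16, limma adjusted p = 0.0108), a call that was lost with TPM (0.57, adjusted p = 0.0677), quantile normalization (0.03, 0.860) and voom (0.76, 0.0696). It was also lost without EE_KO replicate 1 (0.44, adjusted p = 0.0641) and without KO replicate 1 (0.48, 0.0689). Against WT the EE_KO mean was 67.0% of the WT mean, a log2 difference of −0.38 with a 95% interval of −0.75 to −0.0017. Its unadjusted limma p was 0.0492 and its adjusted p 0.665, so it did not pass the threshold. The counts behind Dnmt3l were low, at 74 and 57 reads in EE_KO, 31 and 40 in KO, and 88 and 105 in WT. The ratio of Dnmt3l to Dnmt3a FPKM was 2.09 and 2.83 in EE_KO cells, 0.0962 and 0.118 in KO cells, and 3.45 and 3.40 in WT cells, so the inactive partner exceeded Dnmt3a in EE_KO and WT and fell well under it in KO.

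All 3 erasers were near the bottom of the set in EE_KO and WT. Tet3, which oxidises the paternal genome in the zygote, is the only Tet gene that was tested. Tet3 (ENSMUSG00000034832, chr6:83362373-83459084, minus strand) had 0.401 and 0.160 FPKM in EE_KO cells, 4.01 and 3.93 FPKM in KO cells, and 0.252 and 0.226 FPKM in WT cells. The KO libraries nearly coincided, and the EE_KO libraries lay on both sides of the WT ones. The KO mean of 3.97 ± 0.0569 FPKM was 16.6 times the WT mean of 0.239 ± 0.019 FPKM (SD, n = 2 each), a log2 change of 2.003 (SE 0.16, limma adjusted p = 6.65e-06). EE_KO against KO was −1.96 (SE 0.16, limma adjusted p = 7.97e-06), and against WT 0.04, with a 95% interval of −0.32 to 0.40.

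Tet2 missed the filter by a small margin. Tet2 (ENSMUSG00000040943, chr3:133463679-133545139, minus strand) had 0.219 and 0.206 FPKM in EE_KO cells, 2.57 and 2.27 FPKM in KO cells, and 0.123 and 0.192 FPKM in WT cells. The KO mean was 15.4 times the WT mean, on 54 and 52 reads in EE_KO, 778 and 666 in KO, and 29 and 49 in WT. Without the filter the log2 change was 1.56 for KO against WT (limma adjusted p = 0.000289) and −1.49 for EE_KO against KO (0.000360). Tet1 (ENSMUSG00000047146, chr10:62804570-62908996, minus strand), the Tet gene best known from primordial germ cells, had the lowest level of the set. Tet1 had 0.0574 and 0.0475 FPKM in EE_KO cells, 0.320 and 0.160 FPKM in KO cells, and 0.0601 and 0.0769 FPKM in WT cells. That is 13 and 11 reads in EE_KO, 89 and 43 in KO, and 13 and 18 in WT. The KO libraries were highest, and without the filter the log2 difference was 0.21 for KO against WT (limma adjusted p = 0.0550) and −0.23 for EE_KO against KO (0.0414).

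**Figure D2:**
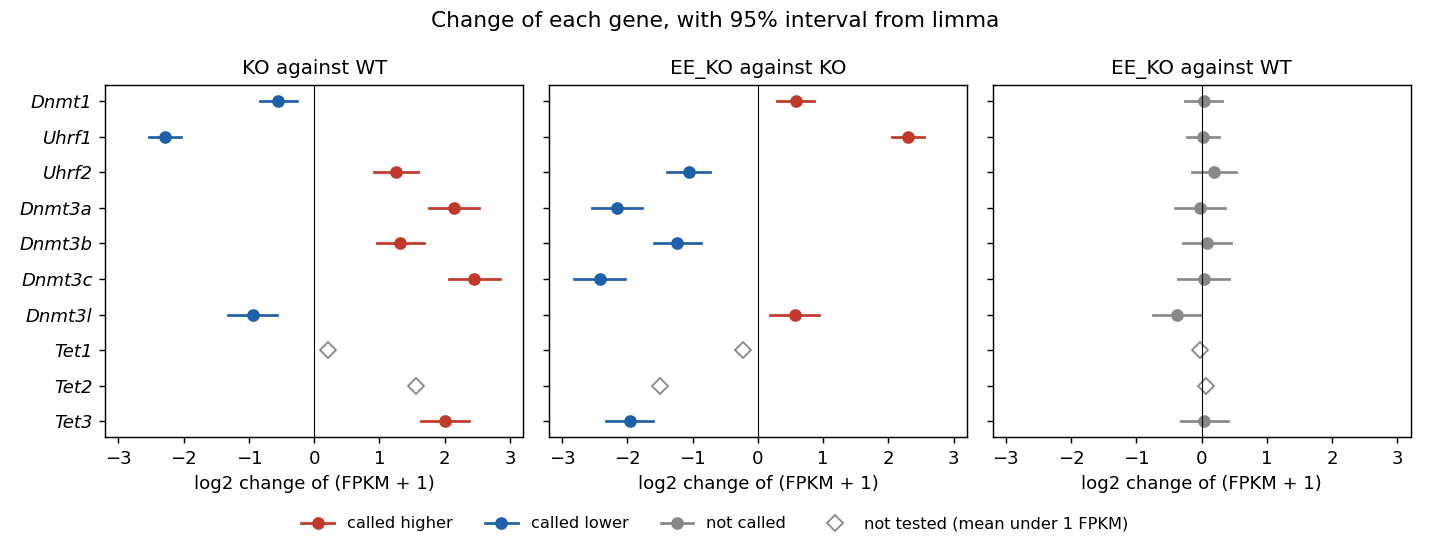
Log2 change of (FPKM + 1) for each gene in the 3 comparisons, with 95% intervals from limma; open points are Tet1 and Tet2, which were not tested. For EE_KO against WT the intervals of 7 of the 8 tested genes include 0, and that of Dnmt3l ends at −0.0017.

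The order of levels changed with genotype. In EE_KO and in WT cells it ran Uhrf1, Dnmt1, Uhrf2, Dnmt3l, Dnmt3b, Dnmt3a, Dnmt3c, Tet3, Tet2, Tet1. Neighbours whose libraries overlapped were Dnmt3l and Dnmt3b, Dnmt3a and Dnmt3c, and Tet3 and Tet2 in EE_KO, and Uhrf2 and Dnmt3l, and Dnmt3a and Dnmt3c in WT. In KO cells the order was Dnmt1, Uhrf1, Dnmt3c, Uhrf2, Dnmt3a, Dnmt3b, Tet3, Tet2, Dnmt3l, Tet1, and Dnmt3c and Uhrf2 overlapped. Among all protein-coding genes, the mean FPKM of Uhrf1 stood at percentile 94.6 in EE_KO, 77.7 in KO and 94.2 in WT. Dnmt1 held percentile 87.1 in EE_KO, 84.5 in KO and 86.6 in WT. Dnmt3c stood at 44.8 in EE_KO, 74.0 in KO and 44.6 in WT, and Tet3 at 37.3 in EE_KO, 63.5 in KO and 36.5 in WT.

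As shares of the summed FPKM of the 10 genes, which do not depend on scaling between libraries, the maintenance genes held most RNA in EE_KO and WT. Dnmt1 and Uhrf1 together made up 89.6% and 91.4% in EE_KO cells, 39.3% and 44.3% in KO cells, and 90.9% and 89.8% in WT cells. The 4 Dnmt3 genes made up 5.82% and 4.56% in EE_KO, 35.6% and 32.3% in KO, and 5.77% and 6.19% in WT. The Tet genes made up 0.870% and 0.502% in EE_KO, 12.1% and 11.2% in KO, and 0.539% and 0.642% in WT. The KO libraries were separate from the rest in each of these shares. Dnmt1 alone held a share of 27.5% and 27.1% in EE_KO, 22.9% and 27.4% in KO, and 27.2% and 26.8% in WT, so its share in KO overlapped the others. The ratio of Dnmt1 to the sum of Dnmt3a, Dnmt3b and Dnmt3c was 7.53 and 8.997 in EE_KO, 0.663 and 0.887 in KO, and 8.58 and 8.44 in WT. The summed RNA of these de novo enzymes was thus above that of Dnmt1 in both KO libraries. These are shares of RNA and not of protein or activity.

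**Figure D3:**
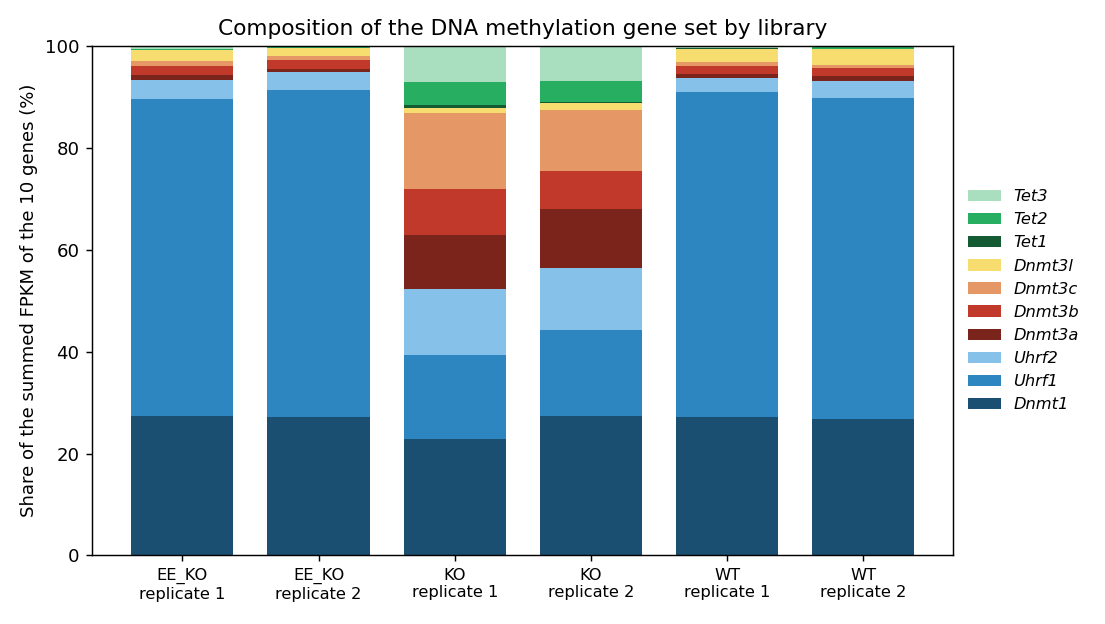
Share of the summed FPKM of the 10 genes held by each gene, as 1 stacked bar per library in the order EE_KO, KO, WT. Uhrf1 took 62.1% and 64.3% in EE_KO, 16.4% and 16.9% in KO, and 63.8% and 62.9% in WT.

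Markers of other cells moved with these changes. The counts of markers called in KO against WT stand against 38.0% of all genes tested called higher and 48.1% called lower. All 15 mid to late pachytene markers were called lower in KO, and EE_KO cells, with a sum of 7912 to 8496 FPKM, lay near WT. Sertoli cell markers rose in 13 of 13 tested (14 listed), with sums of 229 to 429 FPKM in EE_KO, 3694 to 3896 in KO and 258 to 262 in WT. Leydig cell markers rose in 10 of 10, with sums of 91.7 to 191 FPKM in EE_KO, 2293 to 2408 in KO and 64.3 to 118 in WT. Spermatogonial markers rose in 9 and fell in 1 of 10 tested (15 listed), at 39.3 to 46.7 FPKM in EE_KO, 218 to 256 in KO and 41.98 to 43.8 in WT. Leptotene and zygotene markers rose in 4 and fell in 4 of 11, at 343 to 395 FPKM in EE_KO, 197 to 230.2 in KO and 328 to 332 in WT. All 12 spermatid markers fell, at 2484 to 3581 FPKM in EE_KO, 27.1 to 27.7 in KO and 1999.9 to 3844 in WT. Leukocyte markers rose in 6 of 6 tested (9 listed), at 4.85 to 5.003 FPKM in EE_KO, 27.5 to 35.6 in KO and 3.21 to 4.68 in WT. Markers of peritubular, endothelial and blood cells rose in 3 of 3 tested (9 listed), at 3.72 to 6.84 FPKM in EE_KO, 26.4 to 28.5 in KO and 3.19 to 3.56 in WT. Cd14, C1qa, C1qb, Cd74, Pdgfra, Cdh5, Zbtb16, Sall4, Lin28a, Lhcgr and Prdm9 were under 1 FPKM in every EE_KO and WT library. They passed the filter only through their KO level, so the filter favoured their rises. Of the markers not tested, Gfra1, Nanos2 and Adgre1 had lower means in KO than in WT, and the others higher means. Nanos2, Inhba, Hbb-bs, Hba-a1 and C1qa were each at 0 in at least 1 library. EE_KO replicate 1 had the higher Sertoli (429 against 229 FPKM in replicate 2) and Leydig (191 against 91.7 FPKM) sums of its pair. It had higher levels than replicate 2 of Dnmt3a, Dnmt3c, Tet1, Tet2 and Tet3, and lower levels of Dnmt3b and Uhrf2, the other 2 genes that were higher in KO. Some gaps rest on few reads, with 13 against 11 for Tet1, 54 against 52 for Tet2 and 22 against 18 for Dnmt3c. Of the genes lower in KO, Dnmt1 and Uhrf1 were lower in replicate 1 and Dnmt3l was higher (1.69 against 1.27 FPKM). The part of other cells in the changes of the 10 genes was not tested.

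**Figure D4:**
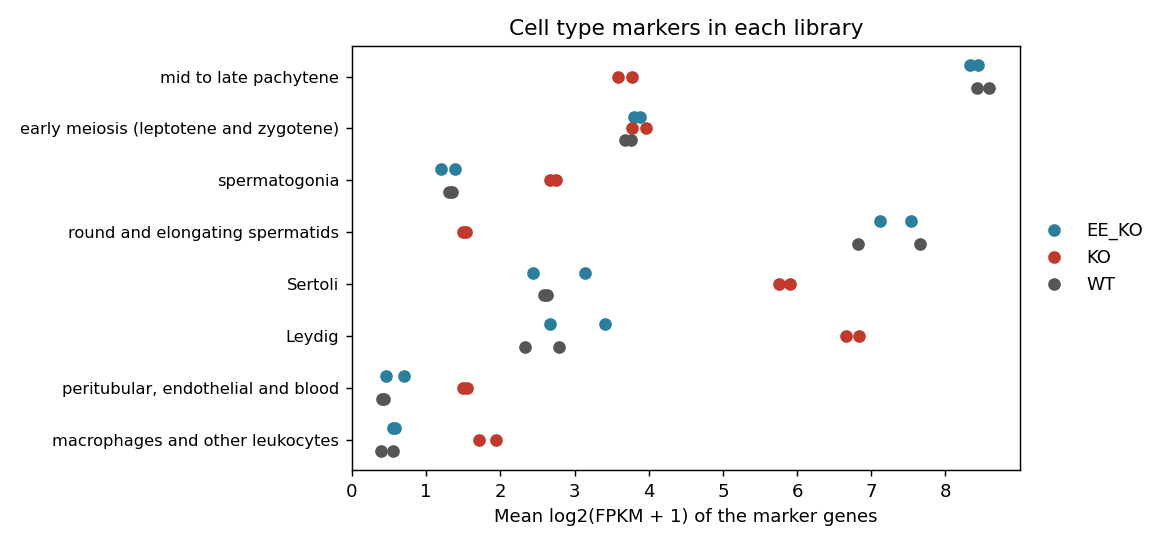
Mean log2(FPKM + 1) of each marker list, with 1 point per library for EE_KO, KO and WT. KO points stand lowest for mid to late pachytene and spermatid markers and highest for spermatogonial, Sertoli, Leydig, leukocyte and peritubular, endothelial and blood markers.

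The genes that act with these 10 were followed in 6 lists, with KO against WT changes beside the all-gene median of −0.29. Their counts stand against the 38.0% of all genes tested that were called higher in KO and the 48.1% called lower. With TPM 6827 of all 15368 genes were called higher in KO and 6408 lower, with an all-gene median of 0.09. Zbtb38, Zbtb33, L3mbtl3, Kdm1b, Suv39h1, Idh2, Ung and Gnmt had means under 1 FPKM in EE_KO and in WT. They passed the filter only through KO, so it favoured their rises. Spocd1, Mbd3l1 and Zfp57 were under 1 FPKM in KO and passed through EE_KO and WT. The counts and medians of the lists carry both effects. In the list for piRNA-directed methylation, which guides de novo methylation to transposons in fetal germ cells, 12 of 15 tested genes fell and 1 rose, with a median log2 change of −2.07. Mael, a piRNA pathway factor, averaged 682 ± 53.2 FPKM in EE_KO, 48.96 ± 6.06 in KO and 735 ± 26.9 in WT (SD, n = 2 each), a log2 change of −3.89. Mael is also in the list of mid to late pachytene markers, so its fall is counted in both lists. Gtsf1, a cofactor of PIWI proteins, changed by −4.09, and Pld6, the mitochondrial enzyme of piRNA biogenesis, by −3.64. The exception was Tex15, which is needed for piRNA-directed methylation in mice, at 0.78 (limma adjusted p = 0.00198). Morc1 (0.04) and Mov10l1 (−0.14) were not called. The part of the lower pachytene markers of KO in the falls of this list was not tested. Against KO, 12 of these genes were higher and 1 lower in EE_KO, beside 47.8% and 37.8% of all genes tested.

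Among methyl-CpG readers and the MBD family relatives listed with them, 4 rose and 3 fell of 12 tested, with a median of 0.20. With TPM 7 rose and 3 fell. Zbtb38 (1.89), Zbtb33 (1.69) and Mbd2 (0.81) rose, the first 2 being zinc finger proteins that bind methylated DNA. Mbd3l1, a germ cell relative of MBD3, averaged 19.2 ± 0.955 FPKM in EE_KO, 0.032 ± 0.0452 in KO and 19.2 ± 5.75 in WT and fell by 4.26 on the log2 scale. Mbd3, a subunit of the NuRD complex, changed by −1.60 and Zfp57, which protects methylation at imprinted loci, by −1.63. Of the 12 tested maintenance partners 5 rose and 3 fell, with a median of 0.26, against 7 and 3 with TPM. The CAF-1 histone chaperone subunits went opposite ways: Chaf1b changed by 1.37 and Chaf1a by −3.06. Cdca7, which recruits the remodeller HELLS, changed by 1.71 and its paralog Cdca7l by −1.16. Pcna, the replication clamp, changed by −0.93, and L3mbtl3, a reader of methylated DNMT1, by 1.94.

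The list of histone marks that guide DNMT3 enzymes was divided, with 5 rises and 8 falls among 16 tested and a median of −0.27; with TPM it held 6 rises and 3 falls and a median of 0.15. The H3K9 methyltransferase gene Ehmt1 (2.55), the H3K4 demethylase gene Kdm1b (2.41) and the H3K4 methyltransferase gene Kmt2a (2.41) rose. Trim28 (−1.36), the corepressor of KRAB zinc finger proteins, Morc3 (−0.86) and the H3K36 methyltransferase gene Nsd2 (−0.83) fell. In the list of oxidation partners and base excision repair, 9 of 14 tested rose and 4 fell, with a median of 1.21. Gadd45a (3.58), Ogt (3.31), the TET-binding O-GlcNAc transferase, and Idh1 (2.83), which makes the TET cofactor 2-oxoglutarate, rose. Lig3 (−2.58), Polb (−2.32) and Xrcc1 (−2.12), which act together in gap filling and ligation, fell. In the methyl donor cycle 9 of 13 tested rose and 3 fell, with a median of 0.92. Mat2a (1.58) and Mat2b (1.74), which form the S-adenosylmethionine synthase of most tissues, and Mthfd1 (2.24) rose, while Ahcyl2 (−0.54) and Shmt1 (−0.35) were among the falls. With TPM 10 rose and 0 fell, and Shmt1 changed sign, to 0.07. In EE_KO against KO the counts higher and lower were 3 and 4 for readers and relatives, 3 and 6 for maintenance partners and 7 and 6 for histone marks. They were 4 and 10 for oxidation and repair, and 2 and 10 for the donor cycle. Over all genes tested 47.8% were higher and 37.8% lower in that comparison. Against WT, both limma and voom called 0 genes of each list in EE_KO, and an unadjusted limma p below 0.05 was found for 1 gene in each list but the methyl donor cycle, which had 0. The genes named as changed in these lists had a limma adjusted p in KO against WT of at most 0.0398, that of Shmt1.

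**Figure D5:**
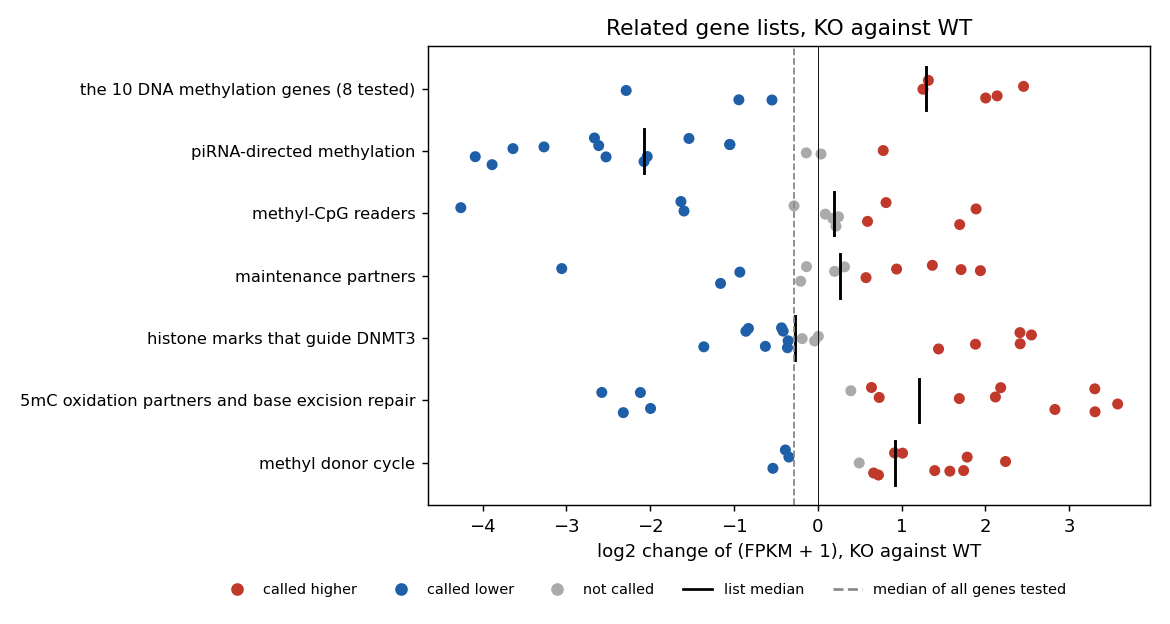
Log2 change in KO against WT of each tested gene in the 10-gene set and in 6 related lists, coloured by call, with list medians as bars and the all-gene median of −0.29 as a dashed line. Falls dominate the piRNA list, and the other lists hold genes on both sides of 0.

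For each tested gene the protein-coding gene with the nearest profile over the 6 libraries was found by the root mean square distance between centred log2(FPKM + 1) values. The nearest were Tmem60 for Uhrf1 (distance 0.0187), Lamtor3 for Dnmt3a (0.0246), Mob1a for Dnmt3b (0.0288), Atp7a for Dnmt3c (0.0299), Dirc2 for Tet3 (0.0349), Smarcb1 for Dnmt1 (0.0373), Ttc3 for Uhrf2 (0.0375) and Afap1 for Dnmt3l (0.0789). None of these is itself among the 10 genes or the related lists. The distances describe likeness over 6 libraries in 3 groups, where most genes separate KO from the rest.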

How the data were processed

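RNA sequencing libraries came from STA-PUT purified pachytene cells, 2 per genotype. The values are FPKM deposited by the authors, per the file headers; libraries were made with a SMARTer kit, per the labels' protocols, and GRCm38 and mm10 are named in the submitters' processing notes. No source used here gives the aligner, counter or annotation. Symbols, positions and exon lengths came from GENCODE M21 (GRCm38), which lacks 37 of the genes.

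FPKM times exon length came out whole for 96.8 to 97.0% of values (tolerance 0.01), with all values of the 10 genes whole; these recovered reads gave 14178387 to 16565238 reads per library. Short RNAs (533) and repeated symbols (6) were left out of testing. limma 3.58.1 (R 4.3.3) was fitted to log2(FPKM + 1) with a mean-variance trend, all 6 libraries in 1 model with 3 residual degrees of freedom, for genes with a mean of at least 1 FPKM, and p-values were adjusted by Benjamini-Hochberg over all genes tested. The steps were run on simulated data in which few genes changed and all libraries had the same depth. That run does not cover data where most genes change or calls depend on scaling.

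Alternatives were pseudocounts of 0.1 and 0.5, no filter, a filter at 5 FPKM, TPM, quantile normalization, voom on recovered reads (14687 genes), a fit to the 2 groups compared, a fit with no mean-variance trend, a replicate block and leaving out each library. Named genes are the 10 genes, the MAPS gene, up to 3 called genes with the smallest KO against WT p in each direction of each related list, and the nearest profile of each tested gene; 1 gene that this rule names is not reported here. The genes and lists were chosen with earlier results of these data known. Promoters came from RefSeq (GRCm38.p6). Python 3.11.15, pandas 2.3.3, numpy 2.4.6, Biopython 1.88 and matplotlib 3.10.9 were used.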

Additional observations from a re-analysis of the deposited data

How the results depend on the processing

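Of the 10 genes, 8 were called both in KO against WT and in the comparison of EE_KO with KO. Over all genes tested 86.2% and 85.6% were called. With TPM, quantile normalization or voom 7 and 6 of the 10 genes were called. Of all 15368 genes, TPM called 6827 higher and 6408 lower in KO than in WT, and 6388 and 6760 in EE_KO than in KO. Quantile normalization gave 6664 and 6407, and 6276 and 6680. Voom, of 14687 genes, gave 6387 and 6248, and 6222 and 6343. With a filter at a mean of 5 FPKM only Uhrf1 and Dnmt1 were tested, and 2 were called in each of the 2 comparisons. Of all 8767 genes then tested, 2934 were higher and 4770 lower in KO than in WT, and 4725 and 2930 in EE_KO than in KO. Without a filter 9 of 10 were called in KO against WT and 10 of 10 in EE_KO against KO, where of all 35425 genes then tested 9129 were higher and 9778 lower in KO than in WT, and 9520 higher and 8938 lower in EE_KO than in KO. EE_KO against WT gave 0 calls under every alternative run. Leaving out 1 library at a time gave 8 calls in KO against WT, and 7 to 8 in EE_KO against KO, with Dnmt3l lost without EE_KO replicate 1 or KO replicate 1. A replicate block called 8, 8 and 0 genes in the 3 comparisons. The labels do not pair the replicate numbers, and the deviations of same-numbered libraries correlated at −0.03 to 0.09.

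The signs that changed all belong to uncalled differences of EE_KO against WT near 0. With quantile normalization Dnmt3c came to −0.0319 and Tet3 to −0.0167. Without 1 replicate at a time, the difference ranged from −0.00573 to 0.0747 for Dnmt1, −0.0462 to 0.0824 for Uhrf1, −0.183 to 0.136 for Dnmt3a, −0.0596 to 0.12 for Dnmt3c and −0.0949 to 0.18 for Tet3. The cause was not tested. Depth limits Tet1, Dnmt3c, Tet2 and Dnmt3l most, with 11, 16, 29 and 31 reads in their lowest libraries.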

Other observations

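Some genes of the related lists were under the filter and so were not tested. Piwil4, the PIWI protein that acts in the nucleus of fetal male germ cells, had 0.0254 and 0.124 FPKM in EE_KO, 0.351 and 0.470 FPKM in KO, and 0.0663 and 0.0245 FPKM in WT, with both KO libraries above the rest. Dppa3, which keeps UHRF1 off chromatin in oocytes, was at 0 in 5 of the 6 libraries and at 0.452 FPKM in KO replicate 2. These genes were chosen after their values were seen.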
